A study of Mus musculus with 4 samples.

Results

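The DNA replication and S phase genes described here are 53 genes whose products mark replication origins, build and drive the replication fork, supply its nucleotides, copy its chromatin marks and time its start. They were taken by gene symbol, with no threshold on their signals. Each was represented by its brightest probe set, the one with the highest mean log2 signal over 4 arrays among the probe sets that name that gene alone. Of the 53 genes, 52 were measured in this way, out of 18193 genes in all, and *Chaf1a* was not analysed here. The mean log2 signal of 51 of the 52 was at or above 5.38, the median over all probe sets, which is a signal of 41.6. The exception was *Tyms*, which encodes thymidylate synthase.

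RNA came from costal (rib) chondrocytes of C57BL6/J mice at postnatal day 5, released by collagenase digestion from pooled litters and pooled again from 3 extractions. The wild type mice carried intact *Xbp1* and *Matn3*. XBP1 null mice lacked exon 2 of *Xbp1*, removed by a Cre recombinase under the *Col2a1* promoter, so that cells in which this promoter is silent keep the gene. *Matn3* mutant mice had intact *Xbp1* and the V194D change in matrilin-3, a cartilage matrix protein that is then retained in the endoplasmic reticulum, and double mutant mice carried both changes. The arrays thus ask how the mutation acts on chondrocytes and what the loss of XBP1, a transcription factor of the unfolded protein response, adds to it. There was 1 array for each of the 4 genotypes. Single differences between arrays therefore have no replicate error and no test, and in this pooled RNA fewer cells in S phase and less RNA per cell cannot be told apart.

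A chromosome is copied from origins that are marked by the origin recognition complex and loaded with the MCM helicase in G1, with the help of CDC6 and CDT1. At the start of S phase CDC45 and the GINS complex switch the helicase on, primase and the DNA polymerases follow, and the clamp PCNA, set on DNA by replication factor C, holds the polymerases in place. In the growth plate cells divide mainly in the columns of proliferating chondrocytes, where these genes are used, and many of them are known targets of the E2F transcription factors.

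The median signal was 43.8 on each of the 4 arrays. Where 4 signals of a gene follow each other below, the first is from the wild type array, the next from XBP1 null, then *Matn3* mutant and last double mutant. *Xbp1* gave signals of 8183, 7877, 11403 and 9548, but the place of its probe set relative to exon 2 was not analysed here, so these signals do not test the deletion. *Col2a1*, whose collagen is the chief one of cartilage, gave signals of 10187, 13435, 13380 and 13571, and all 18 chondrocyte matrix markers were detected above a signal of 1 on every array. Markers of other cells and of sex differed between the pools. The summed signal of 10 endothelial markers was 96.9, 3602, 501 and 822, and that of 3 Y-linked genes was 770, 1110, 2.58 and 1448. The part of these differences in the results below was not tested.

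The replication genes were lower in *Matn3* mutant than in wild type chondrocytes. Over 1.5-fold lower signals were found for 21 of 52 members, or 40.4%, and over 1.5-fold higher signals for 0. Among all 18193 genes, 19.3% were over 1.5-fold lower and 21.2% over 1.5-fold higher, and among the 10982 genes at or above the median brightness these shares were 17.6% and 13.2%. The median log2 difference of the members was -0.52, beside 0.00 for all genes and -0.08 for the brighter ones. The member differences ran from -1.89 for *Timeless* to 0.50 for *Fen1*, and 43 of 52 were below 0. Members just past the threshold and just short of it were *Mcm3*, with a log2 difference of -0.59, and *Mcm4*, with one of -0.58.

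**Figure D1:**
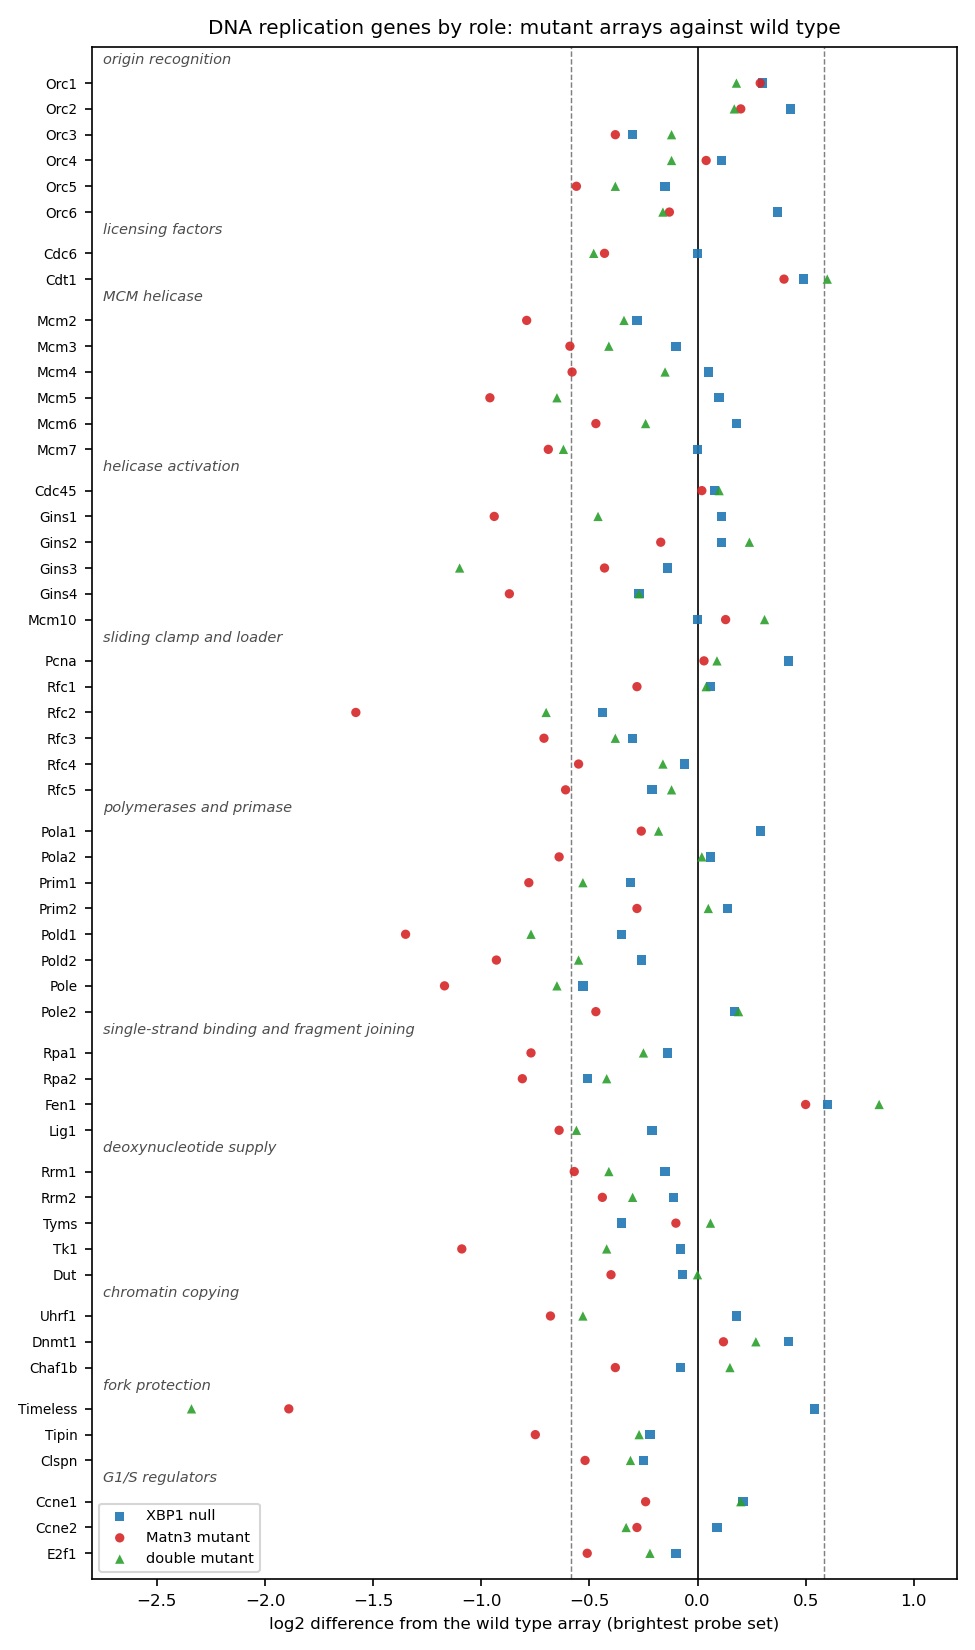
Each row is 1 replication gene, grouped by role, and the horizontal axis is the log2 difference of its brightest probe set from the wild type array. Squares show XBP1 null, circles *Matn3* mutant and triangles double mutant chondrocytes, and dashed lines mark 1.5-fold. Circles lie left of 0 for 43 of 52 genes, while squares stay within 1.5-fold for 51.

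Since many members were lower together, their promoters were read for motifs of cell cycle genes. RefSeq promoter windows on GRCm38.p6, from 250 bases before to 50 bases after the transcription start, were found for 44 of the 53 genes. An E2F motif was taken as TTCGCGC, also as TTGGCGC, also as TTCCCGC and also as TTGCCGC, on either strand, and neighbouring matches can overlap. It was present for 27 of the 44 genes, or 61.4%, compared with 16.0% of 14452 measured genes and 9.57% of all 32851 windows. A CCAAT box (the letters CCAAT on either strand) was present for 59.1% of the members and 42.0% of measured genes. The cell cycle homology region (read as TTTGAA and also as TTCGAA on either strand), known from genes of G2 and mitosis, was present for 18.2% and 17.5%. A match is a run of letters and not a shown binding site.

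The 250 bases before the start are printed for *Mcm5* and *Rpa2*, which had the lowest differences between *Matn3* mutant and wild type among members with 1 window and an E2F motif wholly before the start, and for *Orc1*, which had the highest. Capitals mark E2F matches. All 3 genes lie on the plus strand of GRCm38.p6, at chr8:75109259-75109508 for *Mcm5*, chr4:132768110-132768359 for *Rpa2* and chr4:108579204-108579453 for *Orc1*.
Mcm5: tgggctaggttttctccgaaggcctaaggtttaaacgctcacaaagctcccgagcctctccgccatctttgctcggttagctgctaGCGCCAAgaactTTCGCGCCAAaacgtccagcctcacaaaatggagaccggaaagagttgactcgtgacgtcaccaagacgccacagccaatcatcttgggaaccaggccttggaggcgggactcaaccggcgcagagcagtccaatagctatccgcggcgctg
Rpa2: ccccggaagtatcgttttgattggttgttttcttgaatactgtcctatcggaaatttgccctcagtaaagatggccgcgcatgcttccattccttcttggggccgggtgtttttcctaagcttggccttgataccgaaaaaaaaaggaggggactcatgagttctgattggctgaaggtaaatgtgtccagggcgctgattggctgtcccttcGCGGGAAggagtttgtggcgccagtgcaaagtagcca
Orc1: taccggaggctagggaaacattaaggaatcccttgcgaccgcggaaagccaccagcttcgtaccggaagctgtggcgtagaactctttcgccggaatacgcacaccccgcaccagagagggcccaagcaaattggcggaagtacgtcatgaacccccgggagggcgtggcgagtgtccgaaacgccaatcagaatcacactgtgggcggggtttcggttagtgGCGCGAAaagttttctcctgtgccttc
*Mcm5* held 3 matches, which overlap in part and begin 164, 152 and 149 bases before the start, while *Rpa2* held 1 at 37 bases and *Orc1* 1 at 27 bases before it. Members with and without the motif had similar differences. The 26 measured members with an E2F motif had a median log2 difference of -0.47 between *Matn3* mutant and wild type, with 9 over 1.5-fold lower, and the 17 without it a median of -0.51, with 7 over 1.5-fold lower. Among the windows of all members, 30 of 51 E2F matches began before the start, and the median position of all 51 was 37 bases before it.

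The genes of the origin recognition complex had a median difference near 0, and the licensing factors differed in opposite directions. None of the 6 origin recognition genes was over 1.5-fold lower in *Matn3* mutant chondrocytes, and their median log2 difference was -0.04. *Orc1*, the subunit that cycles with the cell cycle in mammals, gave signals of 73.9, 91.1, 90.6 and 84.0. All 3 mutant arrays were thus above wild type for this gene. *Orc5*, an ATP-binding subunit of the complex, was the lowest of the group on the brightest probe sets. It had signals of 395, 357, 268 and 304, 1.48-fold lower in *Matn3* mutant than in wild type. Of the licensing factors, *Cdt1*, which brings the MCM helicase to origins, had signals of 2867, 4020, 3774 and 4358 and was above wild type on every mutant array. *Cdc6*, its partner in loading, had signals of 223, 222, 165 and 160, so that the pair of arrays with mutant *Matn3* lay below the pair without it.

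The MCM helicase, the ring of 6 subunits that unwinds DNA, was lower as a whole on the brightest probe sets. All 6 genes were below wild type in *Matn3* mutant chondrocytes, with a median log2 difference of -0.64, and 4 of them (*Mcm2*, *Mcm3*, *Mcm5* and *Mcm7*) were over 1.5-fold lower. *Mcm5* gave signals of 1080, 1161, 553 and 687, which is 1.95-fold lower in *Matn3* mutant than in wild type. *Mcm7* had signals of 2056, 2050, 1272 and 1337, and *Mcm6* had signals of 1188, 1343, 859 and 1003. For *Mcm5*, *Mcm6* and *Mcm7* the 2 arrays with mutant *Matn3* lay below the 2 without it, and XBP1 null differed from wild type by at most 1.13-fold. *Mcm2*, at 521, 430, 301 and 412, and *Mcm4*, at 1352, 1401, 904 and 1222, were lowest in *Matn3* mutant, with double mutant between it and wild type. A nearly equally bright probe set of *Mcm4* gave 1133, 1065, 1004 and 1277. On it *Matn3* mutant was lowest by a log2 difference from wild type of only -0.17, and double mutant was highest.

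The proteins that switch the helicase on did not share a direction. Over 1.5-fold lower signals in *Matn3* mutant were found for 2 of 6, *Gins1* and *Gins4*, both subunits of GINS. *Gins1* had signals of 119, 129, 62.2 and 86.7, and *Gins4* had signals of 459, 381, 252 and 382. *Cdc45*, which joins GINS on the helicase, differed little, with signals of 169, 179, 171 and 181. *Mcm10*, which completes the activation of the helicase, had signals of 159, 159, 174 and 197 and was thus above wild type on both arrays with mutant *Matn3*. *Gins3* was lowest in double mutant chondrocytes, with signals of 76.1, 68.9, 56.4 and 35.6, but its other probe set, which lay below the median brightness, had signals of 61.8 in wild type, 20.9 in *Matn3* mutant and 35.2 in double mutant and was thus lowest in *Matn3* mutant.

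The sliding clamp differed from its loader. *Pcna*, the clamp, gave signals of 6943, 9274, 7067 and 7404, 1.02-fold higher in *Matn3* mutant than in wild type. All 5 subunits of replication factor C, the loader, were lower in *Matn3* mutant, and *Rfc2*, *Rfc3* and *Rfc5* over 1.5-fold so. *Rfc2*, a small subunit, had signals of 722, 532, 242 and 444, so that it was 2.99-fold lower in *Matn3* mutant than in wild type and 1.84-fold higher in double mutant than in *Matn3* mutant. Its other probe sets also had wild type highest and *Matn3* mutant lowest, by smaller differences, but put double mutant above XBP1 null, with signals of 201, 139, 107 and 161 on one of them and 171, 137, 112 and 146 on the other. *Rfc1*, the large subunit, had signals of 593, 618, 489 and 611 and stayed within 1.5-fold in each comparison on this probe set. Another, also at or above the median brightness, had signals of 246, 139, 154 and 105. It was over 1.5-fold lower than wild type on every mutant array. A further one gave 665, 484, 460 and 503.

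DNA polymerases and primase were all lower on their brightest probe sets. A second probe set of *Prim2*, also at or above the median brightness, was above wild type on every mutant array, with signals of 203, 223, 226 and 264. On the brightest probe sets all 8 genes were below wild type in *Matn3* mutant chondrocytes, with a median log2 difference of -0.71. Of these 5 were over 1.5-fold lower, namely *Pola2*, *Prim1*, *Pold1*, *Pold2* and *Pole*. *Pold1*, the catalytic subunit of polymerase delta, which copies the lagging strand, had signals of 340, 268, 134 and 200, 2.55-fold lower in *Matn3* mutant than in wild type. *Pole*, the catalytic subunit of polymerase epsilon on the leading strand, had signals of 147, 102, 65.3 and 94.0, 2.26-fold lower. In both genes wild type was highest and *Matn3* mutant lowest. *Pola1*, the catalytic subunit of polymerase alpha, was the least lower of the group, with signals of 260, 318, 218 and 229. *Pole2*, a second subunit of polymerase epsilon, had signals of 735, 827, 529 and 837, and was 1.39-fold lower in *Matn3* mutant than in wild type but 1.58-fold higher in double mutant than in *Matn3* mutant.

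Genes that protect single strands and join fragments split into lower genes and 1 exception. *Rpa1* and *Rpa2*, subunits of the single-strand binding protein RPA, and *Lig1*, the ligase that seals nicks, were each over 1.5-fold lower in *Matn3* mutant. *Rpa2* had signals of 960, 673, 547 and 716, and all 3 mutant arrays were below wild type. *Fen1*, the nuclease that trims the flaps of lagging strand fragments, had signals of 182, 277, 258 and 326, which is 1.42-fold higher in *Matn3* mutant than in wild type. The brightest probe set of *Fen1* is one of those that can cross-hybridize by its suffix, and its other probe set, with signals of 156, 167, 129 and 135, was lower in *Matn3* mutant, so the direction of this gene is uncertain.

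Genes of nucleotide supply were lower too, on their brightest probe sets by less than the polymerases. All 5 genes were below wild type in *Matn3* mutant, with a median log2 difference of -0.44, and 1 of them, *Tk1*, was over 1.5-fold lower. *Tk1*, the thymidine kinase of S phase, had signals of 347, 328, 163 and 259, 2.13-fold lower in *Matn3* mutant than in wild type. The subunits of ribonucleotide reductase, which makes deoxynucleotides, were 1.48-fold lower for *Rrm1*, with signals of 1037, 937, 700 and 782, and 1.36-fold lower for *Rrm2*, with signals of 1791, 1655, 1319 and 1453. Other probe sets at or above the median brightness differed more, with log2 differences of -0.63 for *Rrm1* and of -0.72 and -1.84 for *Rrm2*. The last had signals of 549, 381, 154 and 230. *Tyms*, at -0.10, was read from a probe set below the median brightness. *Dut*, which breaks down dUTP, had signals of 1537, 1462, 1163 and 1540 and was 1.32-fold lower in *Matn3* mutant than in wild type, while the other mutants stayed within 1.05-fold of it.

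Chromatin copying and fork protection held both the largest difference and some of the smallest. *Timeless*, which couples helicase and polymerase at the fork, gave signals of 115, 168, 31.2 and 22.8. This is 3.70-fold lower in *Matn3* mutant than in wild type. Its second probe set, with signals of 95.1, 68.8, 24.5 and 54.3, was lowest in *Matn3* mutant and not in double mutant, and had XBP1 null below wild type. *Tipin*, the partner of *Timeless*, had signals of 1756, 1512, 1044 and 1461, and *Clspn*, which encodes the checkpoint adaptor claspin, had signals of 273, 229, 190 and 221. Of the chromatin genes, *Uhrf1*, which reads DNA methylated on a single strand, had signals of 289, 327, 181 and 200, with both arrays of mutant *Matn3* below the other pair. *Dnmt1*, the methyltransferase that UHRF1 recruits, went the other way, with signals of 963, 1285, 1050 and 1158 and 3 probe sets that were each above wild type on all mutant arrays. *Chaf1b*, a subunit of the chromatin assembly factor CAF-1, had signals of 92.5, 87.6, 71.3 and 103.

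The brightest probe sets of the regulators of the entry into S phase stayed within 1.5-fold in *Matn3* mutant chondrocytes. *E2f1*, the transcription factor that drives many of these genes, had signals of 96.4, 90.0, 67.5 and 82.5, 1.43-fold lower in *Matn3* mutant than in wild type. A nearly equally bright probe set of *E2f1* differed more, with signals of 116, 89.9, 52.8 and 85.9, a log2 difference of -1.13. The cyclin E genes had signals of 311, 359, 264 and 357 for *Ccne1* and of 278, 296, 229 and 221 for *Ccne2*, while the other probe set of *Ccne1*, below the median brightness, had a log2 difference of -2.07. Of the 11 roles, 8 had at least 1 member over 1.5-fold lower, and the median of each role was below 0.

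Ranked over the 4 arrays, *Matn3* mutant was lowest for 37 of 52 members, or 71.2%. The share was 33.8% of all genes and 42.7% of genes at or above the median brightness. *Matn3* mutant was highest for 0 members, compared with 13.9% of all genes and 9.71% of the brighter ones. Wild type was highest for 25 members, or 48.1%, compared with 25.4% and 25.1%. XBP1 null was highest for 18, or 34.6%, near the 30.9% of all genes and 34.2% of the brighter ones. Double mutant was highest for 9, or 17.3%, compared with 29.8% and 31.0%. In 31 members double mutant lay between *Matn3* mutant and wild type, which is the case for 37.6% of all genes. For 25 members all 3 mutant arrays were below wild type (22.1% of all genes), and for 8 all 3 were above it (32.6% of all genes).

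Loss of XBP1 on intact *Matn3* left the replication genes close to wild type on their brightest probe sets. None of the 52 members was over 1.5-fold lower, and *Fen1*, at 1.52-fold, was the 1 member over 1.5-fold higher, while 11.5% of all genes were over 1.5-fold lower and 23.3% over 1.5-fold higher (5.82% and 18.8% of the brighter genes). After quantile normalization 2 members were lower and 0 higher. The median log2 difference of the members was -0.03, beside 0.09 for all genes, and the range ran from -0.53 to 0.60. *Pole* was the lowest, at 1.44-fold lower, and *Rpa2* was next, at 1.43-fold lower. *Pcna*, at 1.34-fold, *Cdt1*, at 1.40-fold, and *Dnmt1*, at 1.33-fold, were among those with higher signals. The 63 other probe sets of the members lay somewhat lower, with a median log2 difference of -0.18. Of these 11 were over 1.5-fold lower and 3 higher, and 37 had the sign of the brightest probe set. Among the 40 at or above the median brightness the median was -0.16, with 3 lower and 1 higher. The XBP1 null pool was the one with the most endothelial and adipocyte marker signal, with a summed signal of 5 adipocyte markers of 5750 compared with 956 in wild type, and the part of these cells in its differences was not tested.

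**Figure D2:**
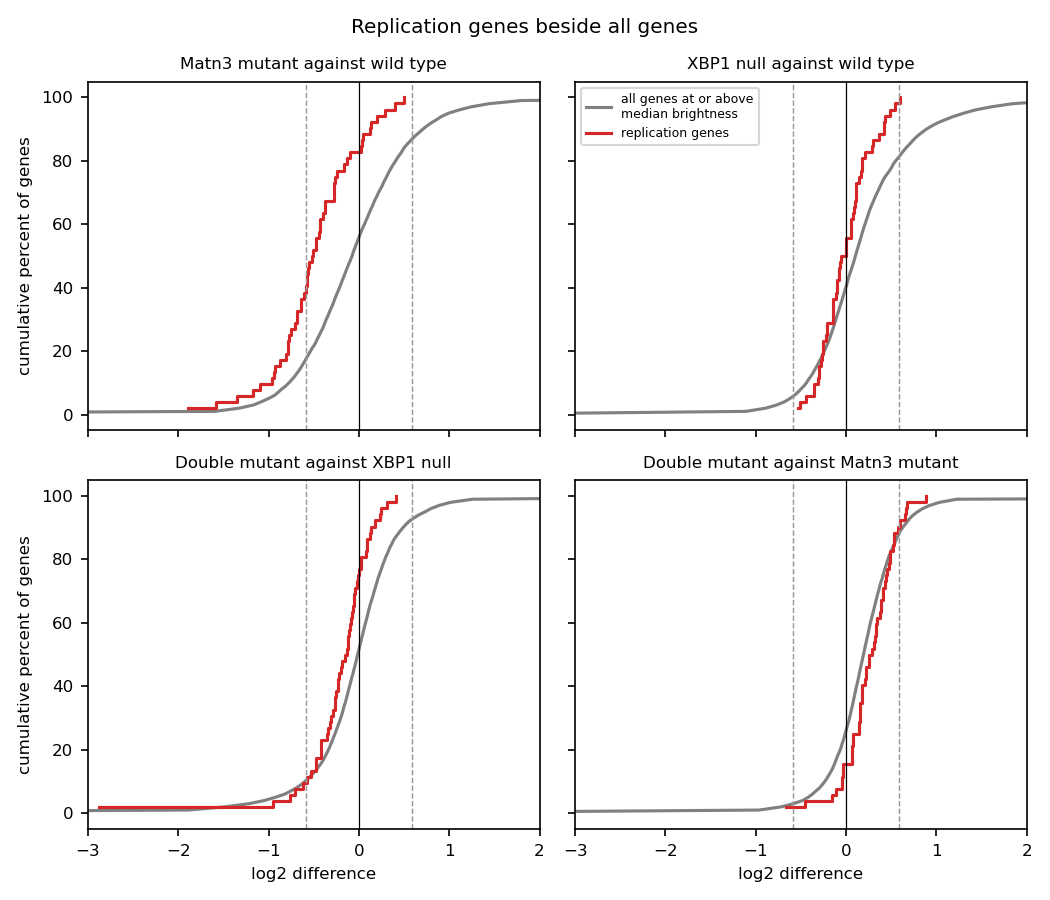
Cumulative percent of genes against the log2 difference in 4 comparisons, for 52 replication genes (red) and all 10982 genes at or above the median brightness (grey), with dashed lines at 1.5-fold. The red curve lies left of the grey one in *Matn3* mutant against wild type, with medians of -0.52 and -0.08, and right of it over most of its length in double mutant against *Matn3* mutant, with medians of 0.27 and 0.19.

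When XBP1 was lost on mutant *Matn3*, signals of most replication genes were higher, as were those of most genes. In double mutant compared with *Matn3* mutant chondrocytes 44 of 52 members were above 0, as were 11559 of 18193 genes and 8108 of the 10982 brighter ones. Among the members 5 were over 1.5-fold higher (*Rfc2*, *Tk1*, *Pole2*, *Pola2* and *Gins4*) and 1, *Gins3*, was over 1.5-fold lower. Of all genes, 17.4% were over 1.5-fold higher and 9.03% lower, and of the brighter genes 11.9% and 3.00%. The median log2 difference was 0.27 for the members, 0.15 for all genes and 0.19 for the brighter ones. The 9.62% of members over 1.5-fold higher are thus below the share of all genes. The *Matn3* mutant array is shared with its comparison with wild type, so a low or high signal on it enters both with opposite sign. After quantile normalization 1 member was higher and 1 lower, with a median of 0.17 beside 0.07 for all genes. *Pola2*, the regulatory subunit of polymerase alpha, had signals of 190, 198, 122 and 192, so that wild type, XBP1 null and double mutant were nearly level and *Matn3* mutant stood below them.

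Compared with wild type, double mutant chondrocytes had lower signals for fewer members. Over 1.5-fold lower were 7 members, namely *Timeless*, *Gins3*, *Pold1*, *Rfc2*, *Mcm5*, *Pole* and *Mcm7*, and 2, *Fen1* and *Cdt1*, were over 1.5-fold higher. This is 13.5% and 3.85% of the members, compared with 12.1% and 24.1% of all genes and 6.89% and 16.0% of the brighter ones, so that the share of lower members was near that of all genes. After quantile normalization 9 members were lower and 1 higher. The median log2 difference was -0.25, beside 0.13 for all genes. This comparison and that of *Matn3* mutant with wild type share the wild type array.

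The mutation can be read on each XBP1 background from a pair of comparisons that share no array, *Matn3* mutant with wild type and double mutant with XBP1 null. In the latter, 5 members were over 1.5-fold lower, *Timeless*, *Gins3*, *Mcm5*, *Uhrf1* and *Mcm7*, and 0 over 1.5-fold higher, compared with 16.9% and 16.6% of all genes and 10.5% and 7.38% of the brighter ones. The median log2 difference was -0.14, beside 0.00 for all genes. In 34 members, or 65.4%, the difference was below 0 on both backgrounds, compared with 26.5% of all genes and 30.2% of the brighter ones. Over 1.5-fold lower on both were 4 members, *Timeless*, *Mcm5*, *Mcm7* and *Uhrf1*, which are 19.0% of the 21 on intact *Xbp1* and 80.0% of the 5 without it. Of all genes over 1.5-fold lower on 1 background, the shares lower on both were 28.4% and 32.5%. Of the brighter genes they were 15.4% and 25.8%. The 19.0% is thus below the share of all genes and above that of the brighter ones. Of those 21 members, 18 were below 0 without XBP1, as were 2160 of 3508 such genes among all. Other probe sets at or above the median brightness differed less between double mutant and XBP1 null. They gave log2 differences of -0.34 for *Timeless*, -0.61 for *Mcm5*, and -0.05, -0.18 and -0.31 for *Mcm7*. Across the 52 members the Pearson correlation of the differences was 0.52, and 0.33 across 51 without *Timeless*. It was 0.21 across all genes and 0.03 across the brighter ones. Genes on the same arrays are not independent replicates.

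**Figure D3:**
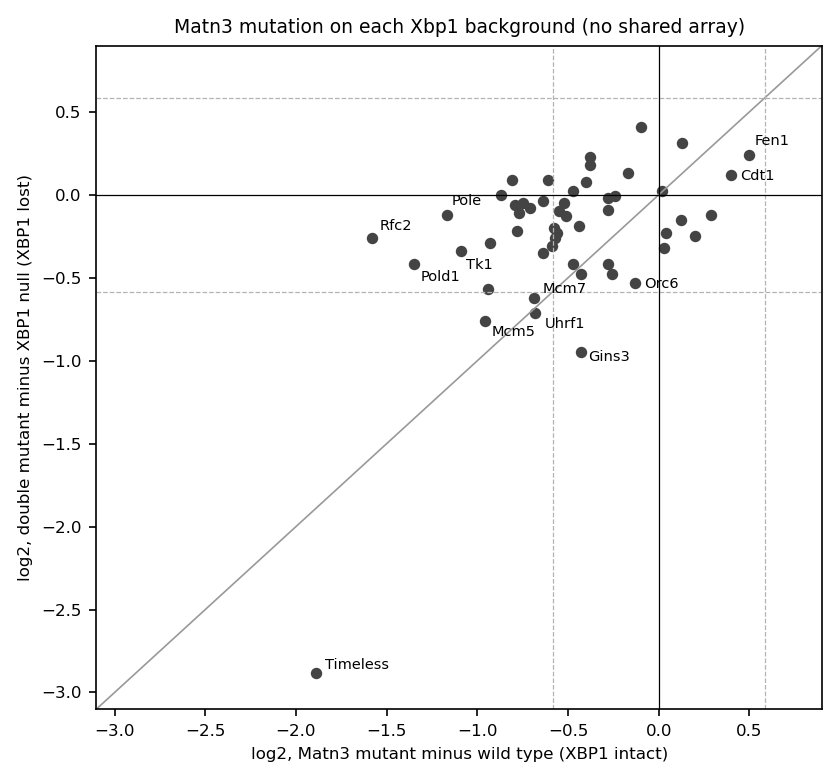
Each point is 1 of 52 replication genes, with the log2 difference of *Matn3* mutant from wild type on the horizontal axis and that of double mutant from XBP1 null on the vertical axis. The diagonal marks equal differences and dashed lines mark 1.5-fold. Points lie below 0 on both axes for 34 genes and above the diagonal for 37, and *Timeless* stands far from the rest.

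The difference was smaller without XBP1 for most members. The log2 difference between double mutant and XBP1 null exceeded that between *Matn3* mutant and wild type in 37 of 52 members, or 71.2%, by a median of 0.30, compared with 51.0% and 0.02 for all genes and 55.8% and 0.09 for the brighter ones. With 1 array per genotype this difference of differences has no test. On their brightest probe sets *Rfc2*, *Pold1*, *Pole* and *Tk1* followed it. Each was over 2-fold lower in *Matn3* mutant than in wild type and within 1.5-fold in double mutant compared with XBP1 null. The second probe set of *Pold1*, with log2 differences of -1.97 and -0.64, was over 1.5-fold lower in both. *Timeless*, also over 2-fold lower, went the other way, with -1.89 and -2.88, but had -1.95 and -0.34 on its second probe set. All were picked by their large first difference. On their brightest probe sets *Mcm7*, *Uhrf1*, *Mcm6* and *Cdc6* differed about equally on both backgrounds. Their log2 differences were -0.69 and -0.62, -0.68 and -0.71, -0.47 and -0.42, and -0.43 and -0.48 in turn. The other probe sets of *Mcm7*, all at or above the median brightness, differed less without XBP1. They gave -0.29 and -0.05, -0.71 and -0.18, and -0.70 and -0.31. Those of *Mcm6* gave -0.24 and -0.43, and -0.59 and 0.06. The XBP1 comparisons that share no array, XBP1 null with wild type and double mutant with *Matn3* mutant, had 2 members, or 3.85%, below 0 in both, compared with 10.4% of all genes, and a correlation across the 52 members of -0.40, beside -0.08 for all genes.

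An additive model of the mutation and the loss of XBP1, fitted with limma over all 45037 probe sets, left 1 residual degree of freedom, the departure of the 4 arrays from additivity. At an adjusted p under 0.05 it called 0 members and 0 probe sets for either effect, and the lowest adjusted p of a member was 0.635 for the mutation and 0.819 for XBP1 loss. For the mutation, 46 of 52 effects were below 0, with a median of -0.35, beside 0.00 over all probe sets. An unadjusted p under 0.05 was reached by 5 members, *Mcm5*, *Mcm6*, *Mcm7*, *Timeless* and *Uhrf1*, all lower, compared with 7.51% of all probe sets in either direction and 4.03% that were both under this p and lower. The fitted effect was -0.86 ± 0.114 for *Mcm5*, -0.65 ± 0.0911 for *Mcm7* and -0.69 ± 0.116 for *Uhrf1* (log2, standard error of the fit, which holds no variation between animals). For the loss of XBP1 the median effect was 0.14 and 0 members reached an unadjusted p under 0.05, compared with 4.56% of all probe sets.

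Other probe sets of the same genes offer a second reading of the same RNA. For 40 members there were 63 other probe sets, and 50 of these had the sign of the brightest one in *Matn3* mutant compared with wild type, as did 36 of the 40 at or above the median brightness. Of the 21 members over 1.5-fold lower, 14 had other probe sets, 22 in all. Of these 20 were below 0 and 17 over 1.5-fold lower, the exceptions to the first being 1 probe set of *Mcm3* and 1 of *Pola2*, the latter with signals under 4 on every array. *Pold1* had signals of 207, 170, 52.8 and 109 on its second probe set, and *Mcm5* had signals of 232, 225, 140 and 147. In both, *Matn3* mutant was lowest again. For double mutant compared with XBP1 null 37 of 63 had the sign of the brightest probe set. The 5 members over 1.5-fold lower there had 8 other probe sets, of which 8 were below 0 and 3 over 1.5-fold lower. Of the 5 of these at or above the median brightness, 1 was over 1.5-fold lower.

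**Figure D4:**
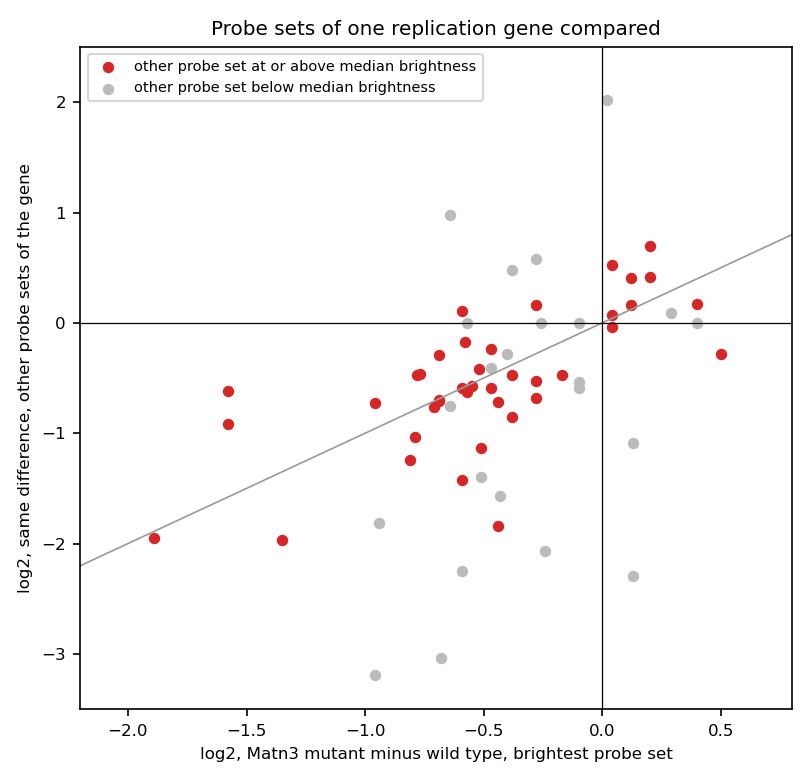
Each point is 1 of 63 other probe sets of 40 replication genes, with the log2 difference of *Matn3* mutant from wild type on the gene's brightest probe set (horizontal axis) and on the other probe set (vertical axis). Red points are at or above the median brightness and grey points below it. Of the red points, 36 of 40 share the sign of the brightest probe set, and the grey ones scatter more.

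Genes of neighbouring steps were read from lists for the rest of the cell cycle. Of 33 other measured replication genes, 7 were over 1.5-fold lower and 3 higher in *Matn3* mutant than in wild type, with a median log2 difference of -0.41. The 21.2% lower are close to the 19.3% of all genes, and the 3 higher genes were *Ticrr*, *Recql4* and *Samhd1*, the first and second of them below the median brightness. *Cdc7*, the kinase that fires origins, gave signals of 414, 232, 152 and 181. *Rpa3*, the small subunit of RPA, had signals of 958, 788, 369 and 653. *Rnaseh2a*, which removes RNA from DNA, had signals of 158, 119, 67.2 and 145, and *Asf1b*, a histone chaperone, 326, 261, 166 and 235. In these 4 genes wild type was highest and *Matn3* mutant lowest.

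The list of mitosis and spindle genes had a lower median than the replication genes on every mutant array. In *Matn3* mutant compared with wild type 28 of 38 (73.7%, compared with 19.3% of all genes) were over 1.5-fold lower and 1, *Foxm1*, higher, with a median log2 difference of -0.78. The median was -0.39 in XBP1 null, with 7 lower (18.4%, compared with 11.5% of all genes). In double mutant it was -0.59, with 21 lower (55.3%, compared with 12.1% of all genes). The replication genes had medians of -0.03 and -0.25 in turn. *Mki67*, the common marker of cycling cells, had signals of 1668, 1303, 964 and 970, and *Top2a*, the topoisomerase that untangles sister chromatids, had signals of 1452, 1157, 1044 and 1091. *Spc25*, a kinetochore gene, had signals of 946, 676, 339 and 480, and *Aurka*, a spindle kinase, 319, 191, 140 and 206. Another kinetochore gene, *Nuf2*, had signals of 626, 394, 218 and 122, and was thus lowest in double mutant. In the promoter windows of 32 genes of this list the E2F motif was present for 15.6%, the CCAAT box for 78.1% and the cell cycle homology region for 81.2%, compared with 61.4%, 59.1% and 18.2% of the replication genes.

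**Figure D5:**
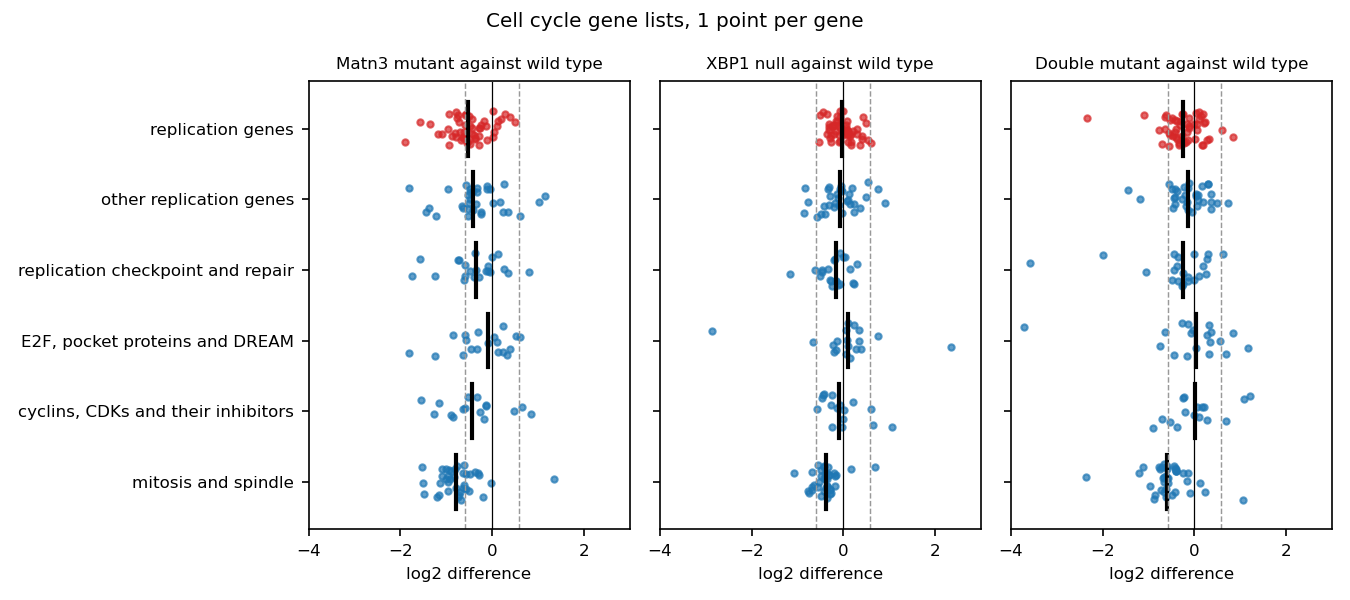
Log2 differences from wild type (horizontal axis) of genes in 6 lists, for *Matn3* mutant, XBP1 null and double mutant chondrocytes. Each point is 1 gene, a black bar is the median of a list, and dashed lines stand at 1.5-fold. The median of the mitosis and spindle list is -0.78, -0.39 and -0.59 in the 3 panels, and that of the replication genes -0.52, -0.03 and -0.25.

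Regulators of the cell cycle differed in both directions. Of 16 cyclins, cyclin-dependent kinases and inhibitors, 6 (37.5%, compared with 19.3% of all genes) were over 1.5-fold lower and 2 higher in *Matn3* mutant than in wild type. *Ccna2*, the cyclin of S phase and G2, had signals of 775, 711, 324 and 412, and *Ccnd3*, a D-type cyclin, 1955, 1444, 881 and 1353. *Cdk4*, the kinase partner of D-type cyclins, had signals of 2190, 2204, 1173 and 1888, whereas *Cdk6*, its close relative, had signals of 270, 409, 489 and 569. *Cdkn1a*, which encodes the inhibitor p21, was above wild type on every mutant array, with signals of 3342, 6958, 5286 and 7764, as was *Ccnd1*, with signals of 897, 1417, 1254 and 1441. *Cdkn1c*, which encodes p57, was lowest in *Matn3* mutant, at 1.45-fold lower than wild type. Among 19 genes of E2F, pocket proteins and the DREAM complex 4 were over 1.5-fold lower and 1 higher, with a median of -0.08, and the 21.1% lower are close to the 19.3% of all genes. *E2f8*, a repressor of E2F targets, had signals of 205, 212, 114 and 131, while *E2f3*, an activator, had signals of 261, 441, 399 and 470. *Lin37*, a DREAM subunit, was 2.36-fold lower and *Rbl1*, which encodes the pocket protein p107, was 1.55-fold lower.

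Of 22 genes of the replication checkpoint and repair, 6 (27.3%, compared with 19.3% of all genes) were over 1.5-fold lower and 1 higher in *Matn3* mutant, with a median log2 difference of -0.35. *Rad54l*, which acts in homologous recombination, had signals of 169, 76.0, 50.6 and 42.1, highest in wild type. *Chek1*, the checkpoint kinase that restrains origin firing, was the 1 gene of this list over 1.5-fold higher, with signals of 381, 331, 663 and 587. Both arrays with mutant *Matn3* thus lay above the other pair for *Chek1*. *Parp1*, a sensor of DNA breaks, was 1.68-fold lower.

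Markers of other cells are set beside these results since pools of cells were compared. In *Matn3* mutant compared with wild type, 7 of 12 skeletal muscle markers (58.3%, compared with 19.3% of all genes) were over 1.5-fold lower and 2 higher. Most of the 12 lay below the median brightness. Their summed signal of 3326, 2784, 2103 and 2959 is mostly *Tnnt3*, with signals of 2780, 1906, 1829 and 2406. Of 6 erythroid markers, 3 (*Alas2*, *Slc4a1* and *Klf1*) were over 1.5-fold lower, with a median log2 difference of -0.69, while the sum of 3655, 4400, 3649 and 4065 is nearly all *Tfrc*. *Alas2*, the heme synthesis enzyme of red cell precursors, had signals of 83.1, 169, 0.955 and 5.76, and was thus low on both arrays with mutant *Matn3*. The 12 perichondrium and fibroblast markers summed to 52012, 71854, 46114 and 62904, lowest in *Matn3* mutant. Of 7 osteoblast markers 4 were over 1.5-fold lower and 1 higher, with a median of -0.69 and sums of 17013, 22251, 17073 and 21002. Of 7 hypertrophic chondrocyte markers 3 were lower and 1 higher, with sums of 4485, 4561, 3046 and 3591, and *Col10a1*, their collagen, gave signals of 831, 1370, 250 and 223. Chondrocyte matrix markers summed to 174317, 185731, 190706 and 201743, with a median log2 difference of 0.04 between *Matn3* mutant and wild type. How far these cells account for any difference of the replication genes was not tested.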

How the data were processed

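Per the labels, RNA of P5 rib chondrocytes was hybridized to a mouse 3' expression array. The deposited values are linear signal intensities of 45037 probe sets, of which 34945 name 1 gene, 932 several and 9160 none. The methods name Microarray Suite 5 for quality checks and PPLR, with probe-level errors that were not available here, for differential expression. How the authors summarized and normalized these intensities is a step not given in the sources used here. Low signals depend most on that step, and the number of arrays limits the precision.

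Signals under 1 (8.36% to 10.9% per array) were set to 1 and taken as log2 without scaling. Differences over 1.5-fold were counted in 5 comparisons. The additive model used limma 3.58.1 (R 4.3.3) with eBayes and a trend, adjusted by Benjamini and Hochberg. It was run on simulated data to check its estimates. The simulated effects were larger than those of most members, so its power for smaller ones was not tested. Tables were made with Python 3.11.15 and pandas 2.3.3. Gene names came from the platform annotation, promoters from RefSeq. Members, lists and motifs were chosen with earlier results of these data known. All members could be named, as could from each list up to 4 genes, at or above the median brightness, that differed most in *Matn3* mutant from wild type, plus *Mki67*, *Top2a*, *Ccnd1*, *Cdkn1a* and *Cdkn1c*. *Foxm1*, *Ticrr*, *Recql4*, *Samhd1* and the marker genes were named after their values were seen. Alternatives were centring, quantile normalization, a higher floor, brighter genes alone, the median over probe sets, leaving out cross-hybridizing suffixes, a 2-fold threshold and eBayes without trend.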

Additional observations from a re-analysis of the deposited data

How the results depend on the processing

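In *Matn3* mutant compared with wild type the count of members over 1.5-fold lower ran from 17 to 26 over the alternatives at that threshold. The share of all genes ran from 15.7% to 20.1%. Over 2-fold lower were 5 of 52 members, which is near the 8.89% of all genes. Members over 1.5-fold higher were 1 after quantile normalization and 2 with the median over probe sets. Of 110 alternative values 85 stayed close to those reported, 25 moved and 0 reversed. A count within 1.5-fold of the reported one was taken as close. Many of the 85 could hardly move. Centring does little where every array has a median of 43.8. A higher floor and brighter genes alone leave nearly all members as they were, since 51 lie at or above the median brightness. The 85 is therefore no measure of robustness.

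For XBP1 null against wild type, quantile normalization gave 2 lower, 0 higher and a median of -0.11, and the median over probe sets gave 2 lower, 0 higher and a median of -0.15. At 2-fold 0 were higher. For double mutant against *Matn3* mutant, quantile normalization gave 1 higher and a median of 0.17, the median over probe sets gave 2 lower and 8 higher, and the 2-fold threshold gave 0 lower and 0 higher. For double mutant against XBP1 null, quantile normalization gave a median of -0.07, the median over probe sets gave 3 higher, leaving out cross-hybridizing suffixes gave a median of -0.21, and 1 was over 2-fold lower. For double mutant against wild type, quantile normalization, the median over probe sets and leaving out those suffixes each gave 1 higher, and the 2-fold threshold gave 2 lower and 0 higher. The cause of these shifts was not tested beyond the settings themselves. No scaling moved the median of all genes by more than 0.09. The additive fit called 0 members under each of its alternatives.

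No paired analysis was possible because each genotype has 1 array and no replicate number is shared. A difference seen on 1 probe set of 1 pooled array cannot be set against variation between animals.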

Other observations

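*Tyms*, the member below the median brightness, has a brighter probe set that also names its pseudogene *Tyms-ps* and was therefore left out of the results. It gave signals of 432, 460, 271 and 378 in the order used above, a log2 difference of -0.67 between *Matn3* mutant and wild type, and lay lowest in *Matn3* mutant like most of the other members. The probe sets that name *Tyms* alone had signals under 22 on every array.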
